A study of Mus musculus with 6 samples.

Results

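Il1rn, Clu, Msln, Il33, Spp1 and Gja1 are 6 genes used as markers of fetal-like or revival-type intestinal epithelium. They were taken by name from the 54446 genes of the count table, and all 6 were found there. Of these, 5 passed the expression filter that left 15068 genes, and Msln did not. The study compared mice with 2 kinds of genotype: Prkci flox/flox mice that also carry Villin-CRE (knockout, n = 3), and Prkci flox/flox mice without the recombinase (control, n = 3). Both groups carry the floxed alleles, were co-housed and were 3 to 4 months old. The product of Prkci is an atypical protein kinase C that acts in epithelial polarity. The Villin promoter drives Cre in intestinal epithelium, so blood, muscle and connective tissue cells in the same preparation keep the intact gene. The tissue is jejunum by the titles and 10 cm segments of jejunum and ileum by the series text, from which cells were released with EDTA and dithiothreitol.

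When adult intestinal epithelium is wounded, irradiated or infected, surviving cells can transiently take on a transcript pattern that resembles the fetal gut. This state is known from mouse studies to depend on YAP and the TEAD transcription factors. Clu, which encodes the secreted chaperone clusterin, marks the revival stem cells of the irradiated mouse intestine, and Spp1, Gja1, Il1rn, Il33 and Msln have served as markers of fetal or regenerating epithelium. Each of the 6 genes is also expressed in other cell types, such as macrophages (Il1rn, Spp1), smooth muscle (Gja1), mesothelium (Msln) and stromal cells (Il33, Clu). In bulk samples, fewer cells of a type and less RNA per cell cannot be told apart.

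The 6 libraries held 18972906 to 26687856 counts. Levels are given as CPM, counts per 1000000 of the scaled library total. Adjusted p-values are over all genes tested, with a threshold of 0.05. The targeted gene Prkci had 21.5, 14.6 and 21.4 CPM in knockouts (replicates 1 to 3) and 44.6, 46.9 and 44.0 CPM in controls (log2 fold change −1.24, SE 0.17, edgeR adjusted p = 0.0719). The summed level of 10 epithelial markers was 12311 to 18512 CPM in knockouts and 13045 to 13650 CPM in controls, none of them at 0. Knockout replicate 1 stands apart from the other knockouts: its 8 tuft cell markers summed to 206.6 CPM, against 22.0 and 29.5 CPM in knockout replicates 2 and 3 and 203.6 to 252 CPM in controls. Counts of Xist and Ddx3y went against the sex that the series text gives for 3 of the 6 libraries. Those are control replicates 2 and 3 and knockout replicate 3, and without them a lone control remains, which is assumed to vary like the knockouts. No gene was then called by edgeR.

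Il1rn is the member with the clearest separation, and its gene has more than 1 promoter. In mouse and human, an upstream start is known to give the intracellular forms of the interleukin-1 receptor antagonist and a downstream start the secreted form. Promoter windows of RefSeq (GRCm38.p6, each 250 bases before to 50 after a start site) were found for 4 of the 6 members, and 2 of the 3 of Il1rn are shown because a count over the whole gene cannot tell its starts apart. The upstream window lies at chr2:24336610-24336909 and the most downstream one at chr2:24345121-24345420, both on the plus strand. The third, at chr2:24345041-24345340, overlaps the downstream one and is not printed. Capitals mark matches to the letters searched on both strands: GGAATG for TEAD, TGANTCA for AP-1, TTCNNNGAA for STAT, and a strict and a loose form of the NF-kB letters. Each strict NF-kB match is also a loose one.

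Il1rn upstream start: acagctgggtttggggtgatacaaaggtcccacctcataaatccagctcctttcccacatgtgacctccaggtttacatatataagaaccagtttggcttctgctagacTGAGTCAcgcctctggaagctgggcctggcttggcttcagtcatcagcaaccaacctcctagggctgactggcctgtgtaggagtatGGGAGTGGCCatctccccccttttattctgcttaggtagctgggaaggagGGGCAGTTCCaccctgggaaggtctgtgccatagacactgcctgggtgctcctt

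Il1rn downstream start: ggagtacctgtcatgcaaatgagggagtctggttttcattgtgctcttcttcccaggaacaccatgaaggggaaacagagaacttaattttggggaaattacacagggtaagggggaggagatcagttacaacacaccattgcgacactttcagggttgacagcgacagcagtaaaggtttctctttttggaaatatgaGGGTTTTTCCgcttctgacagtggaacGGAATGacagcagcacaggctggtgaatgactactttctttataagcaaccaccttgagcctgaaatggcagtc

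The upstream window holds the AP-1 letters TGAGTCA and a pair of loose NF-kB matches, and the downstream window holds the stricter NF-kB letters GGGTTTTTCC and the TEAD letters. The window not printed holds the same NF-kB letters. Over all 32851 windows of this length, 7.81% hold the AP-1 letters, 14.7% the TEAD letters, 8.30% the STAT letters, 1.63% the stricter NF-kB letters and 50.8% the looser ones. Of the other members, both Il33 windows hold the TEAD letters, and the Gja1 window holds the AP-1 letters TGAGTCA. Neither Spp1 window holds any of the letters searched. These matches describe the sequence and were not tested for binding.

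**Figure D1:**
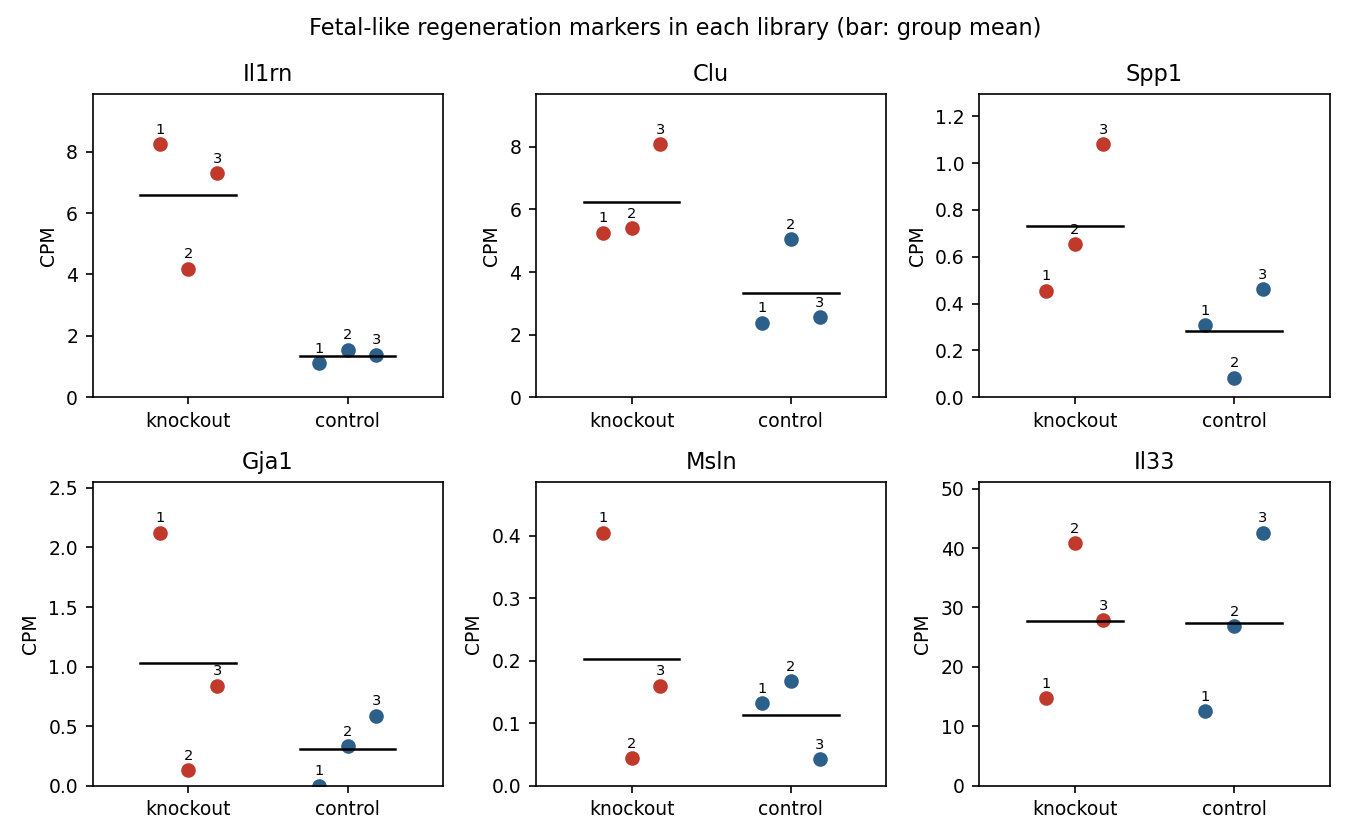
CPM of each fetal-like regeneration marker (vertical axes, each from 0) in the 3 knockout and 3 control libraries; numbers are replicate numbers and bars are group means. Il1rn separates widely, Clu by a small margin, and Spp1, Gja1, Msln and Il33 overlap between the genotypes.

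Il1rn, the antagonist that occupies the interleukin-1 receptor without signalling, separated the genotypes. Its level was 8.25, 4.18 and 7.29 CPM in knockout replicates 1 to 3 (6.57 ± 2.12, SD, n = 3), from 163, 96 and 182 counts. In control replicates 1 to 3 the level was 1.10, 1.54 and 1.38 CPM (1.34 ± 0.224, SD, n = 3), from 25, 37 and 33 counts. The lowest knockout, replicate 2, was still well above the highest control, and the groups did not overlap. The knockout to control ratio of summed counts was 4.84 (exact counting interval 3.87 to 6.11). By edgeR the log2 fold change was 2.29 (SE 0.31, adjusted p = 0.0719), which missed the threshold. The exact permutation p was 0.1, the smallest that 3 against 3 libraries can give.

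The adjusted p of Il1rn depended on the tool and the libraries, while its fold change moved little. By DESeq2 the adjusted p was 7.27e-08. It was 0.00567 without knockout replicate 1 and 0.0381 without knockout replicate 2, and ran up to 0.399 with any other library left out. With the replicate block it was 0.183. The log2 fold change lay between 2.09 and 2.54 with any 1 library left out, and was 2.49 (SE 0.72) without the 3 libraries whose Xist goes against the series text. In the ranking of all 15068 genes by edgeR p, Il1rn was at place 26.

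The count table places Il1rn on mouse chromosome 2 (mm10, 24336853 to 24351494), with 6 annotated transcripts, 4 of them coding. No other annotated gene overlaps it. Macrophages also make the antagonist, and 10 macrophage markers summed to 26.9 to 47.3 CPM in knockouts and 11.7 to 17.5 CPM in controls. Of the 9 macrophage markers tested, 5 passed an unadjusted p and were higher, where 9.32% of all genes were, and none passed after adjustment. Of the 10 listed, 4 (C1qa, Csf1r, Mrc1 and Itgax) were higher in each knockout without overlap, as were 10.0% of all genes tested, the other 6 overlapped, and none was at 0. Per 100 CPM of macrophage markers, Il1rn had 17.4, 15.6 and 23.9 CPM in knockout replicates 1 to 3. In control replicates 1 to 3 it had 9.40, 11.01 and 7.91 CPM, without overlap (exact permutation p = 0.1, the smallest possible). Such a ratio in bulk samples cannot assign the transcript to a cell type. Neutrophils are another known source. Their 6 markers summed to 1.26, 0.261 and 0.240 CPM in knockout replicates 1 to 3 and to 0.176, 0 and 0.251 CPM in control replicates 1 to 3, highest in the library highest in Il1rn. Ly6g and Mpo were at 0 counts in all 6 libraries, S100a8 and S100a9 had no more than 3 counts in any, and Csf3r and Retnlg made up most of the sum. The parts of macrophages and neutrophils in the level of Il1rn were not tested.

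Clu, the extracellular chaperone clusterin, was also higher in each knockout, but by a narrow margin. Its level was 5.26, 5.40 and 8.09 CPM in knockout replicates 1 to 3 and 2.38, 5.04 and 2.55 CPM in control replicates 1 to 3. Control replicate 2 lay just below the lowest knockout, so the groups were separated by less than the spread within either. The means were 6.25 ± 1.59 CPM in knockouts and 3.32 ± 1.49 CPM in controls (SD, n = 3 each). The edgeR log2 fold change was 0.91 (SE 0.35, unadjusted p = 0.0332, adjusted p = 0.263), and the exact permutation p was 0.1. The adjusted p of Clu was 0.140 by DESeq2 and at least 0.0960 with any 1 library left out. Without control replicate 2 the log2 fold change of Clu was 1.34, and without the 3 libraries whose Xist goes against the series text it was 1.16 (SE 0.53). Per 100 CPM of macrophage markers, Clu had 11.1, 20.1 and 26.5 CPM in knockout replicates 1 to 3. In control replicates 1 to 3 it had 20.3, 36.0 and 14.6 CPM, which overlapped (exact permutation p = 0.6). The parts of macrophages and stromal cells in the level of Clu were not tested.

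Il33 encodes a nuclear interleukin released by damaged cells, and it was the most abundant member per length in both genotypes. Its level was 14.8, 40.8 and 27.8 CPM in knockout replicates 1 to 3 and 12.6, 26.8 and 42.6 CPM in control replicates 1 to 3. The groups covered nearly the same range, with replicate 1 the lowest of each. The means were 27.8 ± 13.0 CPM in knockouts and 27.3 ± 15.0 CPM in controls (SD, n = 3 each), with an edgeR log2 fold change of 0.03 (SE 0.49, adjusted p = 0.984). The sign of this fold turned with the libraries and the scaling. It was −0.34 without knockout replicate 2, −0.30 without control replicate 1 and −0.12 with library totals. In the 3 libraries with high Xist (knockout replicates 2 and 3, control replicate 3) Il33 was 27.8 to 42.6 CPM, and in the 3 with low Xist it was 12.6 to 26.8 CPM. With sex by Xist and Ddx3y as a covariate, the log2 fold change of Il33 was −0.36 (edgeR adjusted p = 0.666). Without the 3 libraries whose Xist goes against the series text it was 1.14 (SE 0.69), the furthest that any alternative moved it.

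Spp1 encodes osteopontin, a secreted ligand of integrins and CD44, and was low in all libraries. Its level was 0.455, 0.653 and 1.08 CPM in knockout replicates 1 to 3 (9, 15 and 27 counts). In control replicates 1 to 3 the level was 0.308, 0.0833 and 0.460 CPM (7, 2 and 11 counts). Knockout replicate 1 lay just below control replicate 3, so the groups overlapped at 1 pair of libraries. By Xist the libraries did not overlap, though by a narrow margin. Spp1 was 0.460 to 1.08 CPM in the 3 with high Xist and 0.0833 to 0.455 CPM in the 3 with low Xist. With sex by Xist and Ddx3y as a covariate, the log2 fold change of Spp1 was 1.04 (SE 0.53, edgeR adjusted p = 0.457). The ratio of summed counts was 2.66 (exact counting interval 1.56 to 4.71). The spread between libraries is not in that interval. The edgeR log2 fold change was 1.36 (SE 0.59, unadjusted p = 0.0531, adjusted p = 0.311), and 0.84 (SE 1.06) without the 3 libraries whose Xist goes against the series text. Per 100 CPM of macrophage markers, Spp1 overlapped, at 0.963, 2.43 and 3.55 CPM in knockouts and 2.63, 0.595 and 2.64 CPM in controls (exact permutation p = 0.7). The part of macrophages in the level of Spp1 was not tested.

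Gja1, which encodes the gap junction protein connexin 43, varied more among the knockouts than between the genotypes. Its level was 2.12, 0.131 and 0.841 CPM in knockout replicates 1 to 3 (42, 3 and 21 counts). In control replicates 1 to 3 the level was 0, 0.333 and 0.586 CPM (0, 8 and 14 counts). Knockout replicate 1 was the highest and knockout replicate 2 lay below control replicates 2 and 3. The exact counting interval of the 0 in control replicate 1 reaches 0.162 CPM. The edgeR log2 fold change was 1.70 (SE 1.09, adjusted p = 0.464), and 0.66 without knockout replicate 1 (adjusted p = 0.690) or 2.24 without knockout replicate 2 (adjusted p = 0.413). Without control replicate 3 it was 2.55. Without the 3 libraries whose Xist goes against the series text the lone control is the one at 0 counts, so no fold is given.

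Smooth muscle and fibroblast markers were as uneven across the libraries as Gja1. The 8 smooth muscle markers summed to 33.2, 1.13 and 69.4 CPM in knockout replicates 1 to 3 and to 1.45, 1.67 and 3.73 CPM in control replicates 1 to 3. Of their 4 tested members, all 4 were higher at an unadjusted p, where 9.32% of all genes were. None passed after adjustment and none separated the genotypes. The 8 fibroblast markers summed to 282.9, 185.7 and 250.5 CPM in knockout replicates 1 to 3 and to 322.2, 298.3 and 297.4 CPM in control replicates 1 to 3, lower in each knockout. Fbln1 made up most of that sum and was itself lower in each knockout (log2 fold change −0.47, edgeR unadjusted p = 0.00933, adjusted p = 0.181). The other 7 went the other way in part and summed to 45.3, 2.88 and 22.1 CPM in knockout replicates 1 to 3 and to 2.02, 2.92 and 13.4 CPM in control replicates 1 to 3. Knockout replicates 1 and 3 were thus high for Gja1, for smooth muscle markers and for fibroblast markers other than Fbln1, and knockout replicate 2 was low for these. No smooth muscle or fibroblast marker was at 0 over all libraries. Per 100 CPM of smooth muscle markers, Gja1 had 6.39, 11.5 and 1.21 CPM in knockout replicates 1 to 3 and 0, 20.0 and 15.7 CPM in control replicates 1 to 3, which overlapped (exact permutation p = 0.5). The parts of smooth muscle and fibroblasts in the level of Gja1 were not tested.

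**Figure D2:**
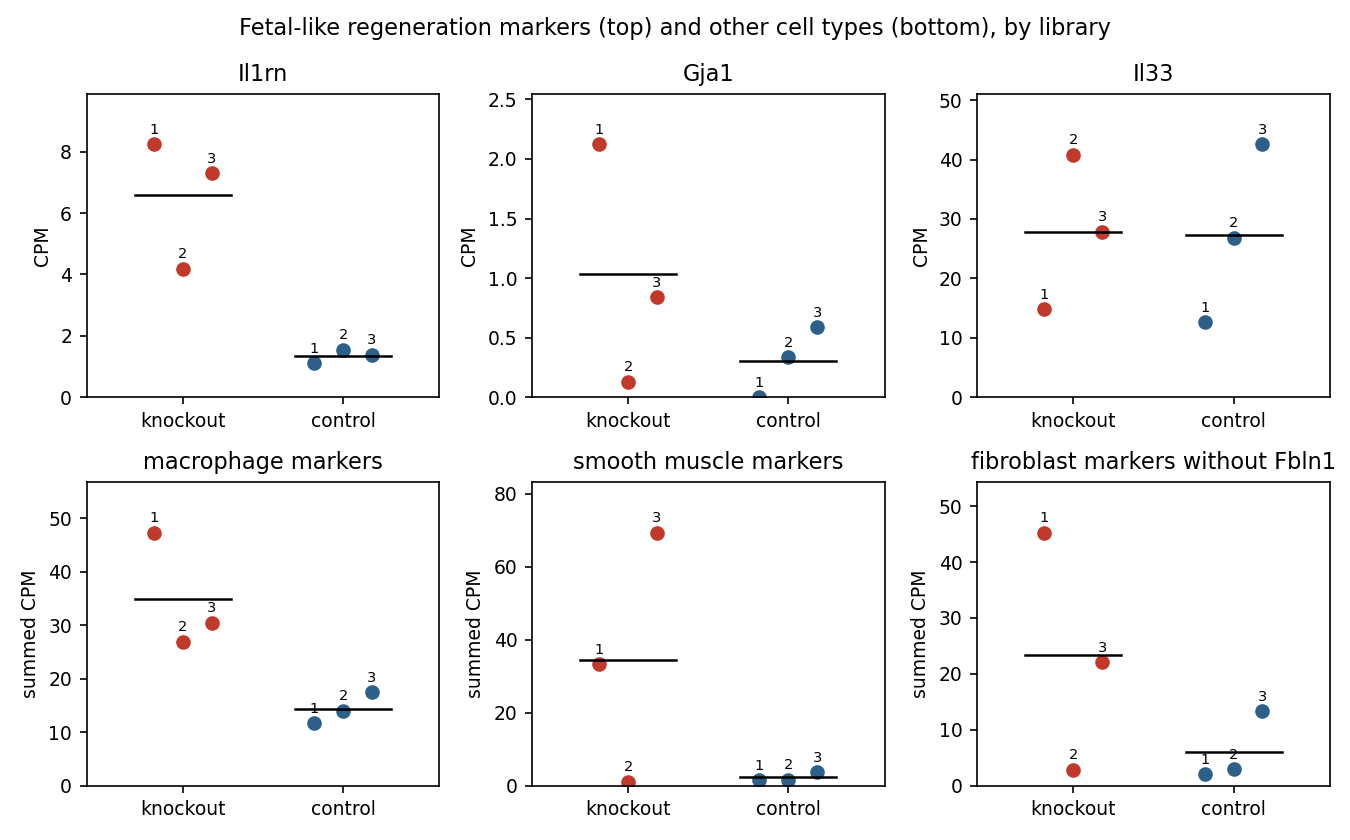
CPM of Il1rn, Gja1 and Il33 (top) and summed CPM of macrophage, smooth muscle and fibroblast markers, the last without Fbln1 (bottom) in each library, with replicate numbers and group means as bars. Macrophage markers are higher in each knockout, as is Il1rn, while smooth muscle markers and fibroblast markers without Fbln1, like Gja1, are high in knockout replicates 1 and 3 and low in replicate 2.

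Msln encodes mesothelin, a surface glycoprotein of mesothelium and of some regenerating epithelia, and was at the limit of detection. It had 8, 1 and 4 counts in knockout replicates 1 to 3 and 3, 4 and 1 counts in control replicates 1 to 3. These are 0.405, 0.0436 and 0.160 CPM in knockouts and 0.132, 0.167 and 0.0419 CPM in controls. The ratio of summed counts was 1.70 (exact counting interval 0.651 to 4.72), so no difference was detectable at this depth. Of the 6 mesothelial markers, Wt1 and Bnc1 had no more than 3 counts in any library, and Upk1b made up most of the sum of 3.29 to 8.49 CPM in knockouts and 3.48 to 5.58 CPM in controls.

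Levels of different genes can be compared per length of annotated exon. Il33 came first at 9.64 ± 4.51 CPM per kilobase in knockouts and 9.47 ± 5.20 CPM per kilobase in controls (SD, n = 3 each). Clu followed at 1.82 ± 0.464 and 0.967 ± 0.434 CPM per kilobase in knockouts and controls, and Il1rn at 1.19 ± 0.384 and 0.242 ± 0.0404 CPM per kilobase. The ranges of Clu and Il1rn per kilobase did not overlap within either genotype, though by a narrow margin in knockouts. Spp1 came next at 0.443 ± 0.194 and 0.172 ± 0.115 CPM per kilobase in knockouts and controls. Its range overlapped that of Il1rn in controls and lay below it in knockouts. Gja1 and Msln had the lowest means and overlapped each other, and in controls also Spp1, at 0.101 ± 0.0985 and 0.0662 ± 0.0602 CPM per kilobase in knockouts and 0.0299 ± 0.0287 and 0.0370 ± 0.0210 CPM per kilobase in controls. The exon length of Msln is that of a newer version of its identifier than the one deposited.

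The 5 tested members did not share a pattern. Over the 6 libraries, log2 CPM correlated at 0.82 between Il1rn and Clu, at 0.67 between Il1rn and Gja1 and at 0.64 between Il1rn and Spp1, and at −0.03 to 0.23 between Il33 and the other 4. These values describe 6 libraries that share genotype and depth differences.

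None of the 5 tested members passed the edgeR threshold over all genes, where 0.0597% of genes (9 of 15068) did. At an unadjusted p, Il1rn and Clu were higher, where 16.4% of all genes passed in either direction and 9.32% were higher. The same pair had every knockout above every control, as did 10.0% of all genes. DESeq2 called 1 member, Il1rn, against 5.55% of genes, and edgeR without knockout replicate 1 called the same one. The count of called genes over the whole table was itself unstable. It was 2700 (17.5%) without knockout replicate 1 and 0 without knockout replicate 3 or without control replicate 1, 2 or 3. It was also 0 with the replicate block. The median log2 fold change of the 5 tested members was 1.36, beside 0.01 over all genes tested. That median leaves out Msln, and low genes such as Spp1 and Gja1 can pass the filter through the group in which they are high.

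**Figure D3:**
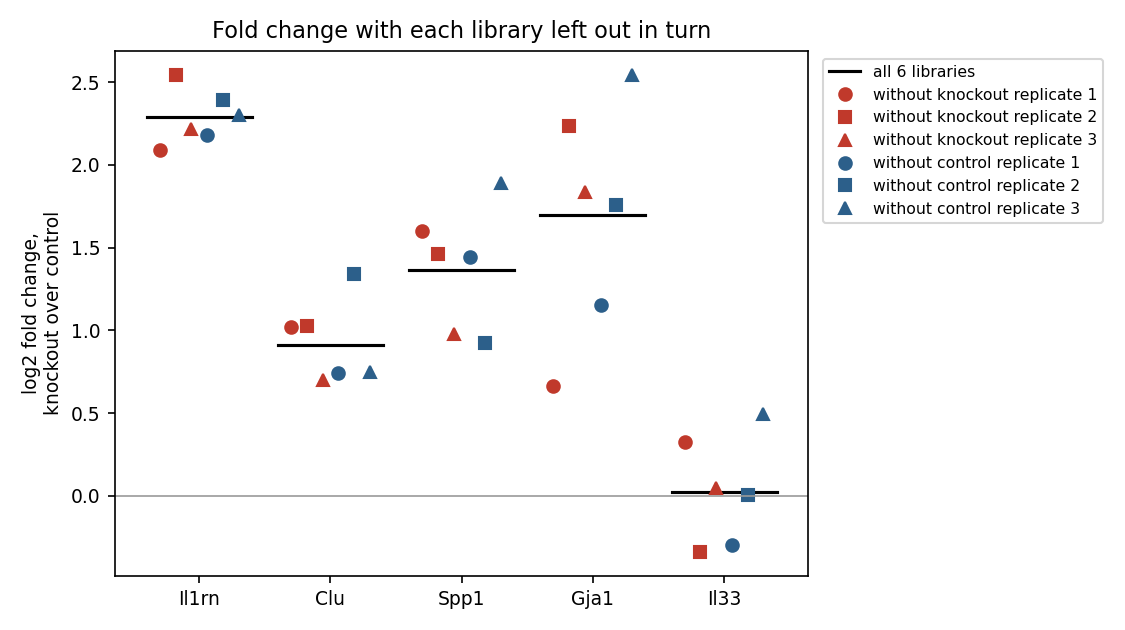
Log2 fold change of the 5 tested markers, knockout over control, with all 6 libraries (black bar) and with each library left out in turn (points). Il1rn stays between 2.09 and 2.54 and Clu between 0.70 and 1.34, Gja1 runs from 0.66 to 2.55, and Il33 lies on both sides of 0.

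Other genes of the fetal-like and revival-type pattern were set beside the members. Of 23 such genes, 21 were tested. Anxa10, an annexin expressed in gastric epithelium, was the single one to pass the edgeR threshold over all genes (0.0531% of all genes were called higher), and none was called lower. At an unadjusted p, 15 were higher and none lower, where 9.32% of all genes were higher. Without overlap, 14 were higher, where 10.0% of all genes were. The median log2 fold change was 1.08. Anxa10 and Anxa1, with 3 and 7 counts over the controls, passed the expression filter only through the knockouts. Ly6a, under the cutoff of the filter in control replicate 1, also needed the knockouts to pass. All of these enter that median and the counts of higher genes. By DESeq2, 12 were called higher, where 3.60% of all genes were. Without knockout replicate 1, edgeR called 13 higher and 1 lower, where 10.0% of all genes were called higher. Summed markers of several other cell types were also higher in each knockout. Those of macrophages are given for Il1rn above and those of T cells for Itgb7 below. The 7 B and plasma cell markers summed to 147.2 to 324.5 CPM in knockouts and 30.1 to 130.3 CPM in controls. The 7 endothelial markers summed to 4.01 to 12.9 CPM in knockouts and 1.96 to 3.52 CPM in controls. Without Igha, the other 6 B and plasma cell markers overlapped, at 22.6 to 88.5 CPM in knockouts and 15.8 to 27.2 CPM in controls. Without Pecam1, the other 6 endothelial markers overlapped, at 2.27 to 6.42 CPM in knockouts and 0.750 to 2.39 CPM in controls. In each of these lists 2 markers were higher without overlap, where 10.0% of all genes tested were. The part of these cell types in the fetal-like genes was not tested.

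Anxa10 had 347 counts over the knockouts and 3 over the controls, a ratio of 121 (counting interval 40.9 to 588). Its edgeR adjusted p was 0.0142, and 0.139 with the replicate block. By edgeR the adjusted p was 0.0756 without knockout replicate 3 and 0.152, 0.276 and 0.157 without control replicate 1, 2 and 3, and 1.00 without the 3 libraries whose Xist goes against the series text. Anxa1, which encodes an annexin linked to resolution of inflammation, had 4.35, 2.18 and 1.52 CPM in knockout replicates 1 to 3 and 0.0880, 0.125 and 0.0837 CPM in control replicates 1 to 3 (log2 fold change 4.68, SE 0.57, edgeR adjusted p = 0.0719). Anxa5 stood at 11.02 to 18.3 CPM in knockouts and 4.44 to 6.13 CPM in controls, and Anxa3 was likewise higher in each knockout (log2 fold change 1.18, SE 0.21, edgeR adjusted p = 0.105). Anxa2, the most abundant gene of the list, differed little, with a log2 fold change of 0.18 (SE 0.11, edgeR adjusted p = 0.456).

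Surface, keratin and calcium-binding genes of the pattern were separated as well, without passing over all genes. Ly6a, which encodes the surface antigen Sca-1 used to sort regenerating cells, had 3.34, 31.4 and 15.4 CPM in knockout replicates 1 to 3 and 0.396, 0.458 and 0.879 CPM in control replicates 1 to 3 (edgeR adjusted p = 0.101). Ly6a was thus lowest among knockouts in replicate 1, whereas Il1rn was highest there. Krt7, a simple-epithelium keratin, had 54.5 to 66.4 CPM in knockouts and 28.6 to 34.6 CPM in controls (edgeR adjusted p = 0.0719). S100a11, a calcium-binding partner of annexins, had 53.6 to 70.9 CPM in knockouts and 34.5 to 34.8 CPM in controls (edgeR adjusted p = 0.0721). The urokinase receptor gene Plaur was likewise higher in each knockout.

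Areg and Ereg, epidermal growth factor ligands of regenerating epithelium, overlapped, with knockout replicate 1 among the controls. Areg had 8.35, 34.5 and 28.0 CPM in knockout replicates 1 to 3 and 9.77, 6.13 and 6.99 CPM in control replicates 1 to 3. Basp1 was the 1 tested gene of the list with a negative fold, at 5.21, 0.566 and 1.24 CPM in knockout replicates 1 to 3 and 4.42 to 5.02 CPM in controls.

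**Figure D4:**
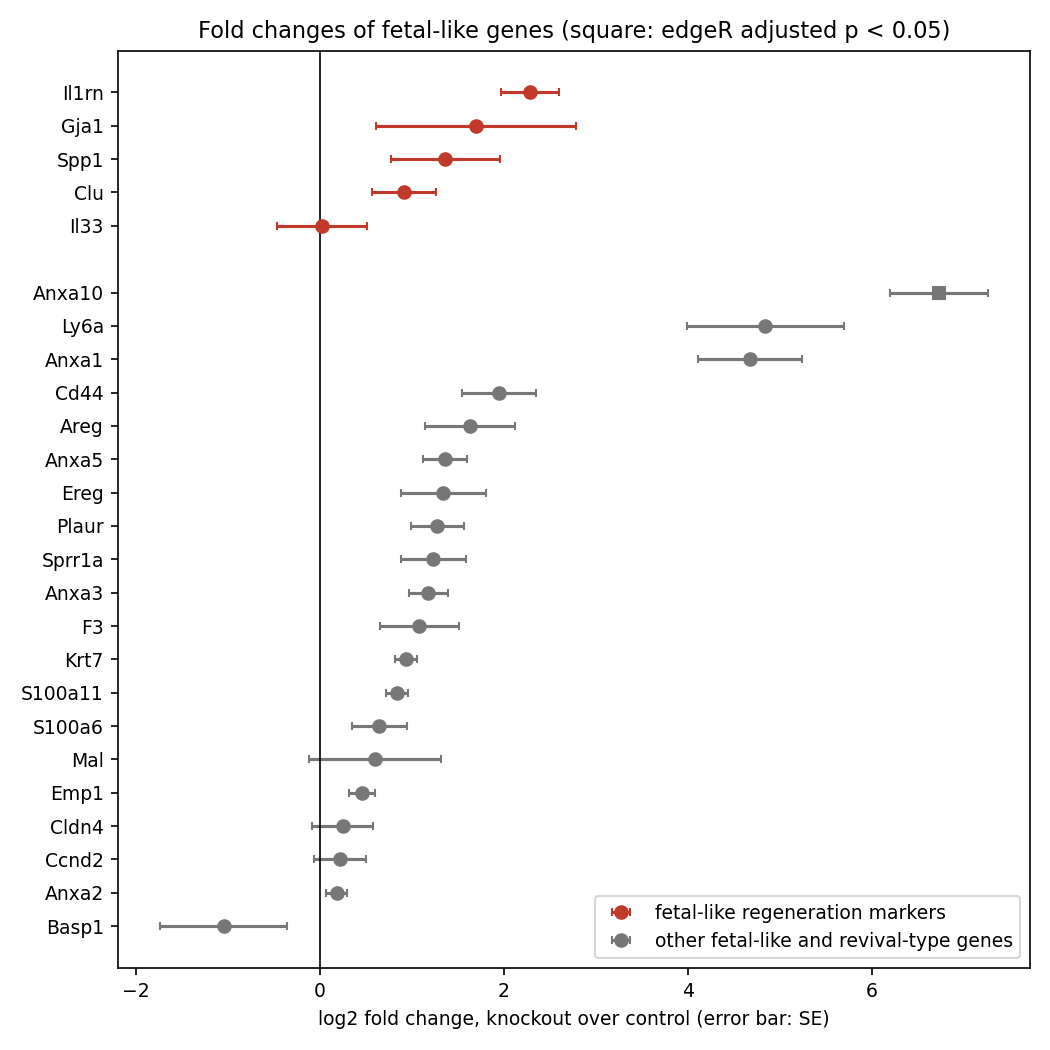
Log2 fold change, knockout over control, with its SE for the 5 tested fetal-like regeneration markers (red) and for 20 of the 21 other tested fetal-like and revival-type genes (grey); a square marks an edgeR adjusted p below 0.05. Anxa10 alone is marked, Il1rn leads the red markers at 2.29, and Basp1 alone lies below 0.

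The YAP target signature holds 22 genes drawn up from human cancers. Of 15 tested, none passed the edgeR threshold over all genes. At an unadjusted p, 5 were higher and none lower, where 9.32% of all genes were higher. DESeq2 called 1 higher, against 3.60% of genes. The median log2 fold change was 0.06. Cyr61, a matricellular protein gene and direct YAP target, had 3.29, 4.62 and 5.89 CPM in knockout replicates 1 to 3 and 1.496, 1.79 and 2.05 CPM in control replicates 1 to 3 (log2 fold change 1.37, SE 0.28, edgeR adjusted p = 0.117). Nuak2, a kinase gene, had 114 to 126 CPM in knockouts and 83.8 to 104 CPM in controls (edgeR adjusted p = 0.253). Arhgef17, a guanine nucleotide exchange factor gene, was low in both, at 0.523 to 1.26 CPM in knockouts and 0.0440 to 0.377 CPM in controls (edgeR adjusted p = 0.183). It passed the expression filter only through the knockouts, and it enters both the count of 5 higher genes and the median. The classical targets Ctgf and Ankrd1 were too low to test, with Ankrd1 at 0 counts in all 6 libraries, and Dock5, the most abundant, had a log2 fold change of 0.03 (SE 0.16).

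Interleukin-1 family genes around Il1rn and Il33 gave no common direction. Of 24 ligand, receptor and signalling genes, 14 were tested, none passed the edgeR threshold over all genes, and the median log2 fold change was −0.02. At an unadjusted p, 2 were higher and 1 lower, where 16.4% of all genes passed in either direction. DESeq2 called Il18bp higher and Il18r1 lower (adjusted p = 0.0089 and 0.0436), against 5.55% of genes. Without knockout replicate 1, edgeR called Il18bp higher and Il18r1 and Il1rl1 lower, where 17.5% of all genes were called. The agonists that Il1rn opposes were scarce, with Il1a at 0.0801 to 0.304 CPM in knockouts and 0 to 0.0440 CPM in controls, and Il1b at 0.349 to 0.658 and 0.167 to 0.293 CPM. Il1r1, their receptor, had 1.72, 0.174 and 0.360 CPM in knockout replicates 1 to 3 and 0.167 to 0.544 CPM in controls.

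Il18bp, which encodes a soluble decoy for interleukin-18, had 17.6, 39.7 and 29.2 CPM in knockout replicates 1 to 3 and 15.8, 9.29 and 11.1 CPM in control replicates 1 to 3 (log2 fold change 1.26, SE 0.33, edgeR adjusted p = 0.160). The interleukin-18 receptor subunits went opposite ways. Il18r1 had 1.16 to 4.40 CPM in knockouts and 5.13 to 7.91 CPM in controls (edgeR adjusted p = 0.215). Il18rap had 0.741 to 1.44 CPM in knockouts and 0.220 to 0.502 CPM in controls (edgeR adjusted p = 0.173). Il18rap needed the knockouts to pass the expression filter, and it is among the list genes higher at an unadjusted p. Casp1, which encodes the protease that matures interleukins 1 beta and 18, had a log2 fold change of −0.24 (SE 0.17). Il1rl1, the receptor for interleukin-33, split the knockouts. Its level was 31.6, 0.261 and 1.32 CPM in knockout replicates 1 to 3 and 7.57, 14.3 and 19.3 CPM in control replicates 1 to 3. The libraries low in Il1rl1 were the ones low in tuft cell markers, whose sums are given above, and Il33 itself was highest among knockouts in one of them.

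Receptors of osteopontin were higher in part. All 11 listed receptors were tested and had a positive fold, as had 7645 of the 15068 genes tested. None passed the edgeR threshold over all genes. At an unadjusted p, 7 were higher, where 9.32% of all genes were. Without overlap, 6 were higher, where 10.0% of all genes were. DESeq2 called 3 higher, against 3.60% of genes. The median log2 fold change was 0.74. Cd44, the hyaluronan and osteopontin receptor and itself a gene of the fetal-like list, had 32.0, 86.0 and 90.9 CPM in knockout replicates 1 to 3 and 14.5, 24.0 and 15.7 CPM in control replicates 1 to 3 (log2 fold change 1.95, SE 0.41, edgeR adjusted p = 0.118). Itga5, a fibronectin and osteopontin receptor subunit, had 2.88, 9.63 and 8.45 CPM in knockout replicates 1 to 3 and 1.67 to 1.98 CPM in controls (edgeR adjusted p = 0.128). Cd44 and Itga5 were both lowest among knockouts in replicate 1, as Spp1 was. Itgb7, an integrin subunit of intraepithelial lymphocytes, had 10.4 to 21.1 CPM in knockouts and 3.85 to 7.17 CPM in controls (edgeR adjusted p = 0.132). T cell markers moved with it: 10 of them summed to 352 to 866 CPM in knockouts and 174 to 297 CPM in controls. Of these, 7 were higher at an unadjusted p, where 9.32% of all genes were, and none was at 0. The part of T cells in the level of Itgb7 was not tested. Itgav, Itgb5 and Itgb6, epithelial integrin subunits, were higher in each knockout, and Itgb1, the most abundant, overlapped (log2 fold change 0.54, SE 0.24).

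Connexins, like Gja1, showed no call with all 6 libraries. Of 17 connexin, pannexin and partner genes, 6 were tested, and none passed the edgeR threshold over all genes or an unadjusted p. Without knockout replicate 1, Gjb2 and Panx1 were called higher (edgeR adjusted p = 0.00762 and 0.0156), where 10.0% of all genes were. Gjb1, the gene of connexin 32, stood at 32.1 to 55.4 CPM in knockouts and 40.2 to 49.1 CPM in controls, and Tjp1, the junction scaffold gene, had a log2 fold change of −0.11 (SE 0.11). Of the clusterin receptors, Lrp8 was higher in each knockout, at 3.04, 17.8 and 10.2 CPM in knockout replicates 1 to 3 and 1.496 to 1.75 CPM in controls (log2 fold change 2.71, SE 0.59, edgeR adjusted p = 0.123, DESeq2 adjusted p = 0.000127). Vldlr, the other one tested, had a log2 fold change of 0.07 (SE 0.24). Lrp2, Trem2 and the mesothelin partner Muc16 were too low to test.

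Crypt stem cell genes, the adult programme that the fetal-like state is known to replace for a time, did not move together. All 15 were tested, none passed the edgeR threshold over all genes or by DESeq2, and the median log2 fold change was 0.05. At an unadjusted p, 1 was higher (Prom1) and 2 lower (Lgr5 and Sox9), where 16.4% of all genes passed in either direction. Without knockout replicate 1, edgeR called Prom1 and Lrig1 higher (adjusted p = 0.000553 and 0.0267), where 10.0% of all genes were. Lgr5, the receptor that marks crypt base stem cells, had 2.23, 2.79 and 1.72 CPM in knockout replicates 1 to 3 and 2.90, 9.71 and 4.52 CPM in control replicates 1 to 3 (log2 fold change −1.35, SE 0.46, edgeR adjusted p = 0.228). Control replicate 2, the control highest in Clu, was also the highest in Lgr5, and the Lgr5 log2 fold change was −0.73 without it and −0.21 without the 3 libraries whose Xist goes against the series text. Olfm4, the most abundant, had a log2 fold change of −0.27 (SE 0.48), and 0.41 without control replicate 2.

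Genes whose log2 CPM most resembled each member over the 6 libraries were sought among genes with a mean of at least 2 CPM. For Il1rn these were Fbxw17, Id1 and Rps6kb2, with Pearson r of 0.99 each. For Clu they were Rpap1, Tnip2 and Hlcs (0.98 to 0.99), and for Spp1 Tmem189, Ripk4 and Gm44250 (0.98 to 0.99). Those nearest to Gja1 were Dnah2, Trim3 and Ppp1r13b (0.97 to 1.00). Those nearest to Il33 were B4galt5, Ptk2 and the X-linked gene Eif2s3x (0.98 to 0.99). With 6 libraries and 11713 or 11714 genes compared, 8 to 29 genes per member exceeded an r of 0.95, so these names describe likeness alone.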

How the data were processed

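RNA was sequenced from 6 libraries of mouse intestinal epithelium. Per the submitters' processing notes, the tools were bcl2fastq 2.17, FastQC, Trim Galore and STAR 2.5.0a, on build mm10. How reads were assigned to genes, with or without strand, is not stated in the labels. The deposited values are raw counts of reads for 54446 genes. Titles gave each library's group, and the numbers in them name the columns.

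The quasi-likelihood F test of edgeR 4.0.16 (R 4.3.3) was fitted to these counts with genotype as its sole term, TMM scaling and the default expression filter (minimum count 10). Adjusted p-values (Benjamini-Hochberg) are over all 15068 genes tested, with a threshold of 0.05. CPM values are counts per 1000000 of the TMM-scaled library total. Each SE is |log2 fold change|/√F. Counting intervals are exact, cover 95% and hold counting error only. Exact two-sided permutation tests of CPM, 3 libraries against 3, cannot give a p below 0.1. Exon lengths came from GENCODE mouse release M21, in which 97.8% of the deposited identifiers were found with their version, and promoter windows from RefSeq (GRCm38.p6).

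The members and lists were chosen with earlier results of these data known. Named genes are the 6 members, Prkci, up to 3 genes of each list that passed an unadjusted p and did not overlap between genotypes, any called gene, the most abundant gene of each list, and the 3 genes most like each member. Ly6a, Plaur, Anxa3, Anxa5, Basp1, Areg, Ereg, Itgav, Itgb5, Itgb6, Prom1, Lrig1, Sox9, the cell type markers named singly, the remaining genes of the interleukin-1 and connexin lists, and the sums of a marker list without its most abundant gene were chosen after their values were seen. Whether equal replicate numbers pair a knockout with a control was checked: after group means were removed, Pearson r was 0.117, 0.119 and 0.149 for same-numbered libraries and −0.143 to 0.00929 for the other pairs. All 3 exceed 0.1, so the blocked value is given where it changes a call, although no label says what a number marks. Alternatives were other scalings and filters, DESeq2 1.42.0, limma-voom (limma 3.58.1), the replicate block, sex as a covariate and leaving out each library. Individual values of some list genes are not reported here.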

Additional observations from a re-analysis of the deposited data

How the results depend on the processing

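Beside 9 genes called by edgeR, library totals gave 16, no filter 284, DESeq2 836, limma-voom 5, the replicate block 0, sex of the series text as a covariate 4, and leaving out the 3 libraries whose Xist goes against that text 0. Leaving out 1 library gave 0 to 2700. Members called, 0 by edgeR, were 1 (Il1rn) without the filter and by DESeq2, 0 with the replicate block and 0 to 1 with 1 library left out. List genes called, 1 by edgeR (Anxa10), were 11 without the filter, 18 by DESeq2, 0 with the replicate block, 2 with sex by Xist and Ddx3y, 0 without the 3 libraries, and 0 to 27 with 1 library left out. The log2 fold change of Il1rn passed the threshold without the filter (2.30) and by DESeq2 (2.30), and ran from 2.09 to 2.54 with 1 library left out. That of Il33 reversed with library totals (−0.12), sex of the series text (−0.046) and sex by Xist and Ddx3y (−0.36), ran from −0.34 to 0.49 with 1 library left out, and was 1.14 without the 3 libraries. Dock5 reversed with library totals (−0.066) and ran from −0.15 to 0.15. Olfm4 reversed without the 3 libraries (0.31) and ran from −0.53 to 0.41. The cause was not tested. The 2 alternatives on Xist were chosen after seeing the data. A filter of 1 CPM left out Spp1 and Gja1. Depth limits Msln, Spp1 and Gja1, and nothing in the labels says that a replicate is a separate litter or preparation.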
